A study of Mus musculus with 10 samples.

Results

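The semaphorins, plexins, neuropilins, ephrins and Eph receptors are families of guidance cues and their receptors. They were taken from a count table of mouse genes by symbol, as the semaphorins of classes 3 to 7, the plexins A to D, both neuropilins, and all Eph receptors and ephrins. This gave 53 genes of 46095 rows, made up of 20 semaphorins, 9 plexins, 2 neuropilins, 8 ephrins and 14 Eph receptors. Open chromatin peaks within 5 kb of each gene body were taken with them.

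Semaphorins are secreted or membrane-bound ligands whose main receptors are the plexins, and the secreted class 3 semaphorins mostly need a neuropilin beside the plexin. Ephrins are held on the cell surface, by a lipid anchor in the A class and by a transmembrane stretch in the B class, and they bind Eph receptor tyrosine kinases on the neighbouring cell, so that both cells can receive a signal. Both systems act on the actin skeleton and on cell adhesion. In mouse bone, semaphorins and ephrins carry signals between osteoblasts and osteoclasts.

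RNA-seq compared 3 libraries of C3H10 T1/2 cells under cyclic mechanical strain with 3 static control libraries, a design that the study set up to look for sensors of mechanical force. C3H10 T1/2 is a mouse embryo line of mesenchymal character with no engineered allele named in the RNA-seq labels, which list its strain as C57BL/6. All cells grew for 48 h on flexible plates coated with collagen type I, and the strained cells were then stretched sinusoidally at 0.5 Hz to 10% elongation for 8 h a day over 3 days. ATAC-seq, which maps open chromatin by insertion of the Tn5 transposase, compared 2 libraries of Piezo1 knockout cells made with CRISPR/Cas9 with 2 libraries of GFP control cells of the same line. No strain is named for the ATAC-seq cells, and the labels do not say whether the knockout cells were 1 clone or a pool. The labels leave out whether replicates were cultured separately, and the p-values below therefore cover library-to-library spread that may be only technical.

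RNA-seq libraries held 36150738 to 41024689 counts, and the 53 genes took 0.298% to 0.379% of them in strain libraries and 0.267% to 0.353% in control libraries. Strain replicate 1 and control replicate 3 stood apart from their groups, with chi-square values of 34.7 to 59.6 for each degree of freedom against their fellow replicates, while the remaining pair gave 15.7 in strain and 9.19 in control. Among the mesenchymal markers, summed levels were 32799 to 38129 CPM (counts scaled to a common library size) in strain libraries and 53689 to 56086 CPM in control libraries. Of these 7 markers, Col1a1, Col1a2 and Twist1 were lower under strain by the test used below, and Thy1 was near 0. Pdgfra, Pdgfrb and Prrx1 were not called, at log2 fold changes of -0.03, -0.04 and 0.19. Most of the summed level was Col1a1, at means of 18809 CPM under strain and 30457 CPM in control, and Col1a2 (15611 and 22865 CPM). Of the markers listed for other cell types, Cdh5 and Emcn (endothelial), Rbfox3 and Snap25 (neuronal), Sox10 (Schwann), Ptprc (macrophage) and Epcam (epithelial) were at 0 in every library. The other markers of these lists had counts in at least 1 library. Summed endothelial markers were 0.793 to 1.19 CPM in strain libraries and 0.512 to 0.927 CPM in control libraries, neuronal ones 40.2 to 55.1 and 37.2 to 42.5 CPM, and macrophage ones 14.3 to 16.5 and 12.1 to 15.3 CPM in the same order. Tubb3 made up most of the neuronal sum, at means of 49.7 CPM under strain and 40.1 CPM in control. Lyz2 made up most of the macrophage sum, at 11.2 and 11.1 CPM. Schwann markers summed to 8.00 to 8.98 CPM under strain and 18.5 to 26 CPM in control, with S100b lower, and epithelial markers to 3.00 to 4.53 and 8.31 to 9.75 CPM, with Cdh1 lower. The part of these markers in the results was not tested. In such bulk samples, fewer cells of a type and less RNA per cell cannot be told apart.

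Under cyclic strain, 4 guidance genes rose and 7 fell. Sema5a, Sema3c, Plxna1 and Nrp1 rose, by 1.41-fold to 2.04-fold. Sema6b, Sema4g, Sema4d, Sema6c, Efna5, Efnb1 and Sema7a fell, to between 0.320 and 0.652 of the control level. All 7 genes that fell are ligands, while the 4 that rose are a pair of semaphorins, a plexin and a neuropilin. Eph receptors gave no call.

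The 11 called genes were 26.2% of the 42 members that passed the filter on low counts, against 13.3% of all 15335 genes tested. In each direction the background was 5.94% called higher and 7.39% called lower. The test was edgeR's quasi-likelihood test with Benjamini-Hochberg adjustment over all genes tested, and a gene was called at an adjusted p under 0.05. With scaling by library size alone, 55.6% of the calls over all genes were higher, against 44.5% with the TMM scaling used here, but all 11 calls kept their direction and Sema3g was added as higher. The strain and control libraries did not overlap in 17 of the 42 members (40.5%), against 35.3% of all genes tested, and these 17 held all 11 called members. The median log2 fold change was -0.18 over the tested members and 0.0049 over all genes tested. Ligands were called in 9 of 24 tested (2 higher, 7 lower) and receptors in 2 of 18 (both higher), at median log2 fold changes of -0.30 and 0.05, but the difference between ligands and receptors was not tested.

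**Figure D1:**
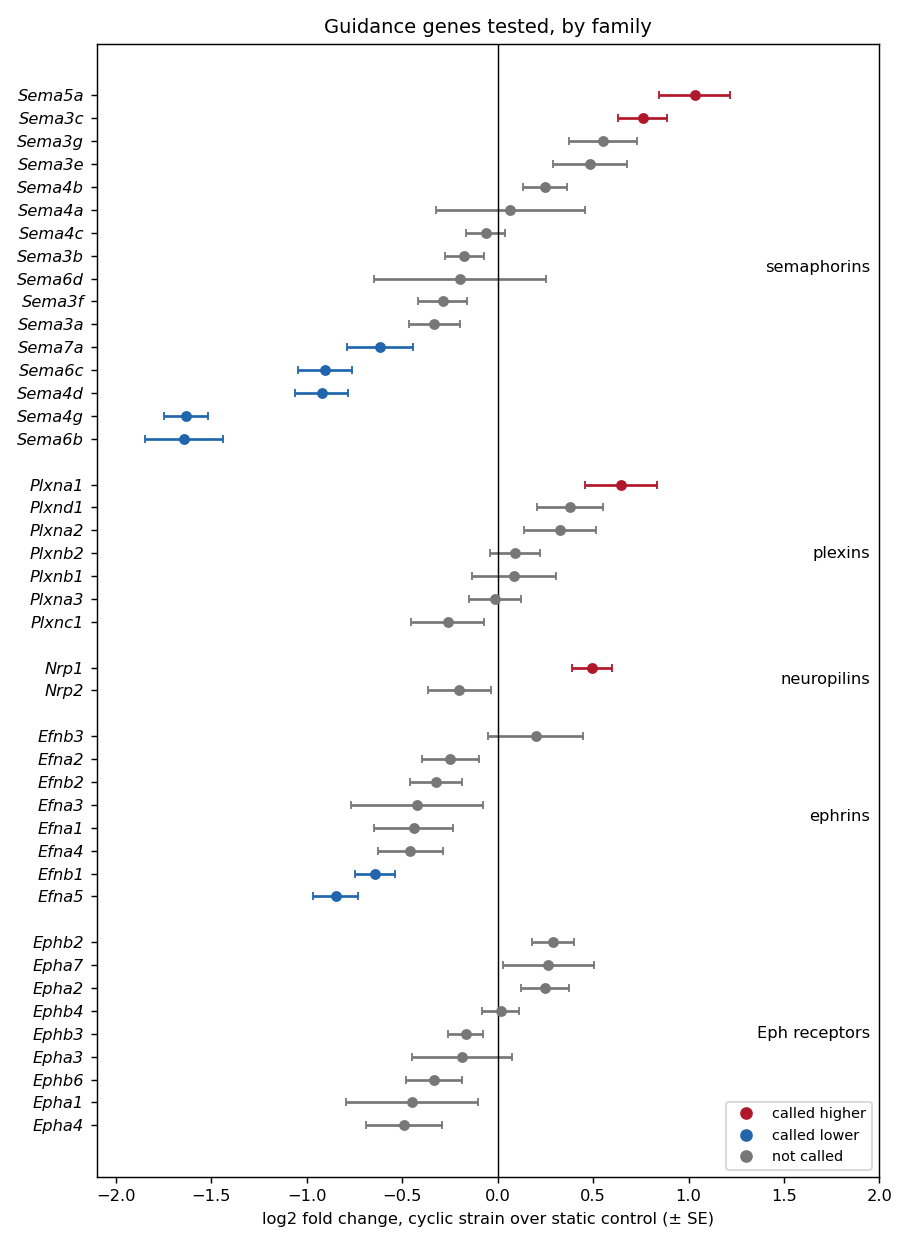
Log2 fold change of cyclic strain over static control (horizontal axis) for each of the 42 tested guidance genes, with its standard error as the bar, grouped by family. The 4 genes called higher lie between 0.50 and 1.03, the 7 called lower between -1.64 and -0.62, and the uncalled genes between -0.49 and 0.55.

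The remaining 11 members were too low to test, with at most 12 counts in any library. They were Sema3d, Sema4f, Sema5b, Sema6a, Plxna4, Plxnb3, Epha5, Epha6, Epha8, Epha10 and Ephb1, and Sema5b, Epha6, Epha10 and Ephb1 had no count in any library. Transcript lengths were not used here, so CPM values are compared between libraries for a gene and not between genes.

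Sema5a was the guidance gene with the highest fold change of those that rose. It encodes a transmembrane semaphorin with thrombospondin-type repeats and is 1 of 2 class 5 semaphorins; the other, Sema5b, had no counts. Sema5a had 22.9, 34.2 and 27.4 CPM in strain replicates 1 to 3, against 14.2, 16.4 and 10.8 CPM in control replicates 1 to 3. Every strain library lay above every control library, with means of 28.2 ± 5.70 and 13.8 ± 2.86 CPM (SD, n = 3 each). The log2 fold change was 1.03 (SE 0.18, edgeR adjusted p = 0.00506), and the call stayed in all 14 alternatives. The gene lies at chr15:32244813-32696341 on the plus strand of GRCm38.p6, the mm10 build of the peak lists. Its promoter, taken as the 250 bases before to 50 bases after the start site from RefSeq, touched an open region, merged from peaks of 2 of the 4 ATAC-seq libraries, knockout 2 and GFP control 1, at 4.15-fold and 4-fold enrichment over the local background. The peak of knockout 2 reached into the window, while that of GFP control 1 began 84 bases past the start site, beyond it. It is shown because the gene was called and its promoter touched a region, which was so for 5 called genes. Capitals mark matches to motifs searched on both strands, here GCGTG, the aryl hydrocarbon receptor core, 2 times in the reverse direction (chr15:32244563-32244862, plus strand).
Sema5a: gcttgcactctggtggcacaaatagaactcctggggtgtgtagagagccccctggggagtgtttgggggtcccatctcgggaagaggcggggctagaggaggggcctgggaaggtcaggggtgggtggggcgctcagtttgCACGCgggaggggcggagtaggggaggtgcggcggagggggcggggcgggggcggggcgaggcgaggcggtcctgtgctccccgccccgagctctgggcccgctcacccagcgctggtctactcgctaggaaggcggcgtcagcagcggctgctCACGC

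Class 3 semaphorins are secreted, and 1 of their 6 tested members, Sema3c, rose while none fell. Sema3c signals through neuropilins with class A plexins or plexin D1 and is known for its role in the development of the heart's outflow tract. Its level was 96.1, 114 and 96.7 CPM in strain replicates 1 to 3, against 60.1, 69.5 and 51.7 CPM in control replicates 1 to 3. The groups did not overlap, and their means were 102 ± 10.3 and 60.5 ± 8.89 CPM (SD, n = 3 each). The log2 fold change was 0.76 (SE 0.13, edgeR adjusted p = 0.00377) and the call stayed in all 14 alternatives. Sema3c lies at chr5:17574816-17730268 on the plus strand, and its promoter touched 2 regions found in both GFP control libraries and in neither knockout library. These were chr5:17574276-17574650, upstream of the gene, and chr5:17574713-17574992, across its start site, each at 4.45-fold and 5.96-fold enrichment in GFP control 1 and 2. That promoter (chr5:17574566-17574865, plus strand) had a GC content of 75.7% and 42 CpG pairs, and its capitals mark 1 match each to GCGTG, in the reverse direction, and ACGTG, the hypoxia response core.
Sema3c: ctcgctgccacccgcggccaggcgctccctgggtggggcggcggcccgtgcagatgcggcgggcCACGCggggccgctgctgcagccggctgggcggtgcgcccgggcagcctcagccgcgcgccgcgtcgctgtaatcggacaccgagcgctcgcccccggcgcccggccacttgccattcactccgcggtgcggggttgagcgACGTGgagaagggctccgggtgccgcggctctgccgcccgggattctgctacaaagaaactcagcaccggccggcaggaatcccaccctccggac

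Sema3a, a class 3 semaphorin that in mouse promotes osteoblast and restrains osteoclast differentiation, was not called. Its level was 61.2, 57.2 and 71.8 CPM in strain replicates 1 to 3, against 84.5, 88.8 and 66.2 CPM in control replicates 1 to 3. The groups overlapped through control replicate 3 alone, which lay below strain replicate 3 (log2 fold change -0.33, SE 0.13, edgeR adjusted p = 0.126). Without that library Sema3a was called lower, at a log2 fold change of -0.45 and an edgeR adjusted p of 0.0312. Over all alternatives its adjusted p lay between 0.0170 and 0.340. The other class 3 members tested, Sema3b, Sema3e, Sema3f and Sema3g, had log2 fold changes of -0.17, 0.49, -0.29 and 0.55. Sema3g had the smallest adjusted p of the uncalled members, 0.0647 by edgeR, with strain libraries of 5.53 to 7.08 CPM above control libraries of 3.82 to 4.68 CPM.

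Class 4 semaphorins are transmembrane proteins, and 2 of 5 tested fell while none rose. Sema4g had 9.97, 10.7 and 10.7 CPM in strain replicates 1 to 3, against 31.4, 34.8 and 30.8 CPM in control replicates 1 to 3. The strain libraries lay close to one another and far below every control library, with means of 10.4 ± 0.410 and 32.4 ± 2.14 CPM (SD, n = 3 each). Its log2 fold change of -1.63 (SE 0.11) had the smallest adjusted p of all members, 2.13e-05 by edgeR. Sema4d, which in mouse is made by osteoclasts and restrains osteoblasts through plexin B1, had 7.90, 8.55 and 8.14 CPM in strain replicates 1 to 3, against 16.6, 16.9 and 13.1 CPM in control replicates 1 to 3. Its groups did not overlap either, at means of 8.20 ± 0.329 and 15.5 ± 2.13 CPM (SD, n = 3 each) and a log2 fold change of -0.92 (SE 0.14, edgeR adjusted p = 0.00225). Both calls stayed in all 14 alternatives. Sema4a, Sema4b and Sema4c were not called, at log2 fold changes of 0.07, 0.25 and -0.06. The Sema4g span is chr19:44988743-45003397 on the plus strand and that of Sema4d chr13:51685529-51793678 on the minus strand. Near each stood 1 open region, found in knockout 2 alone for Sema4g, outside the gene, and in GFP control 2 alone for Sema4d, and neither touched a promoter window.

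Class 6 semaphorins are transmembrane ligands of class A plexins, and 2 of 3 tested fell. Sema6b had 1.54, 1.66 and 2.04 CPM in strain replicates 1 to 3, against 5.75, 4.78 and 5.83 CPM in control replicates 1 to 3. These values rest on 62 to 84 counts in a strain library and 170 to 220 in a control library. Strain libraries all lay below the lowest control library, and the means were 1.74 ± 0.260 and 5.45 ± 0.587 CPM (SD, n = 3 each). Its log2 fold change of -1.64 (SE 0.20, edgeR adjusted p = 0.000771) was the lowest of the tested members. Sema6c had 5.81, 6.41 and 7.42 CPM in strain replicates 1 to 3, against 12.1, 11.7 and 13.0 CPM in control replicates 1 to 3. The groups did not overlap, with means of 6.55 ± 0.810 and 12.3 ± 0.700 CPM (SD, n = 3 each) and a log2 fold change of -0.90 (SE 0.14, edgeR adjusted p = 0.00271). Both calls stayed in all 14 alternatives. Sema6d, a ligand of plexin A1 in mouse osteoclasts and dendritic cells, had 0.624, 0.267 and 0.800 CPM in strain replicates 1 to 3, against 0.679, 0.787 and 0.484 CPM in control replicates 1 to 3. Its groups overlapped over most of their range (log2 fold change -0.20, SE 0.45, edgeR adjusted p = 0.807), and at 10 to 33 counts a library a moderate difference was not detectable.

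Sema6b lies at chr17:56123085-56140343 on the minus strand and was the only called gene with no open region within 5 kb. Sema6c lies at chr3:95160420-95174050 on the plus strand and was the only called gene whose promoter touched a region present in all 4 ATAC-seq libraries. That region, chr3:95159986-95160704, had enrichments of 5.61-fold and 6.15-fold in knockout 1 and 2, and of 5.22-fold and 6.75-fold in GFP control 1 and 2. Within it the first of 2 Sema6c promoters in the RefSeq table (chr3:95160170-95160469, plus strand) had a GC content of 62.7% and 1 GCGTG match, shown in capitals.
Sema6c: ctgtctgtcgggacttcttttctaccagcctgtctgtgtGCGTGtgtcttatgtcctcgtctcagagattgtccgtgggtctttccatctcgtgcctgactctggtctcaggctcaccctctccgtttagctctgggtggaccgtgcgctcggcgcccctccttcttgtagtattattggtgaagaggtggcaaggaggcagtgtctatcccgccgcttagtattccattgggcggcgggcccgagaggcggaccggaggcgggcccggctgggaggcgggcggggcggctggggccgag

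Sema7a, the only class 7 semaphorin, is tied to the membrane by a lipid anchor and binds plexin C1 and beta1 integrins. It had 6.58, 7.83 and 10.5 CPM in strain replicates 1 to 3, against 13.1, 12.1 and 13.1 CPM in control replicates 1 to 3. The groups did not overlap, but the strain libraries were widely spread, with means of 8.31 ± 2.01 and 12.8 ± 0.607 CPM (SD, n = 3 each). Its log2 fold change was -0.62 (SE 0.17, edgeR adjusted p = 0.0417). The call was lost without strain replicate 1 (log2 fold change -0.47, edgeR adjusted p = 0.0892), strain replicate 2 (-0.58, 0.126), control replicate 1 (-0.60, 0.127) or control replicate 3 (-0.60, 0.0807), and its adjusted p over all alternatives lay between 0.00529 and 0.127. Sema7a lies at chr9:57939596-57962865 on the plus strand, with 1 open region, upstream of the gene and in GFP control 2 alone. Its receptor gene Plxnc1 was not called, at 9.09 ± 1.75 CPM under strain and 10.9 ± 2.20 CPM in control (SD, n = 3 each; log2 fold change -0.26).

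**Figure D2:**
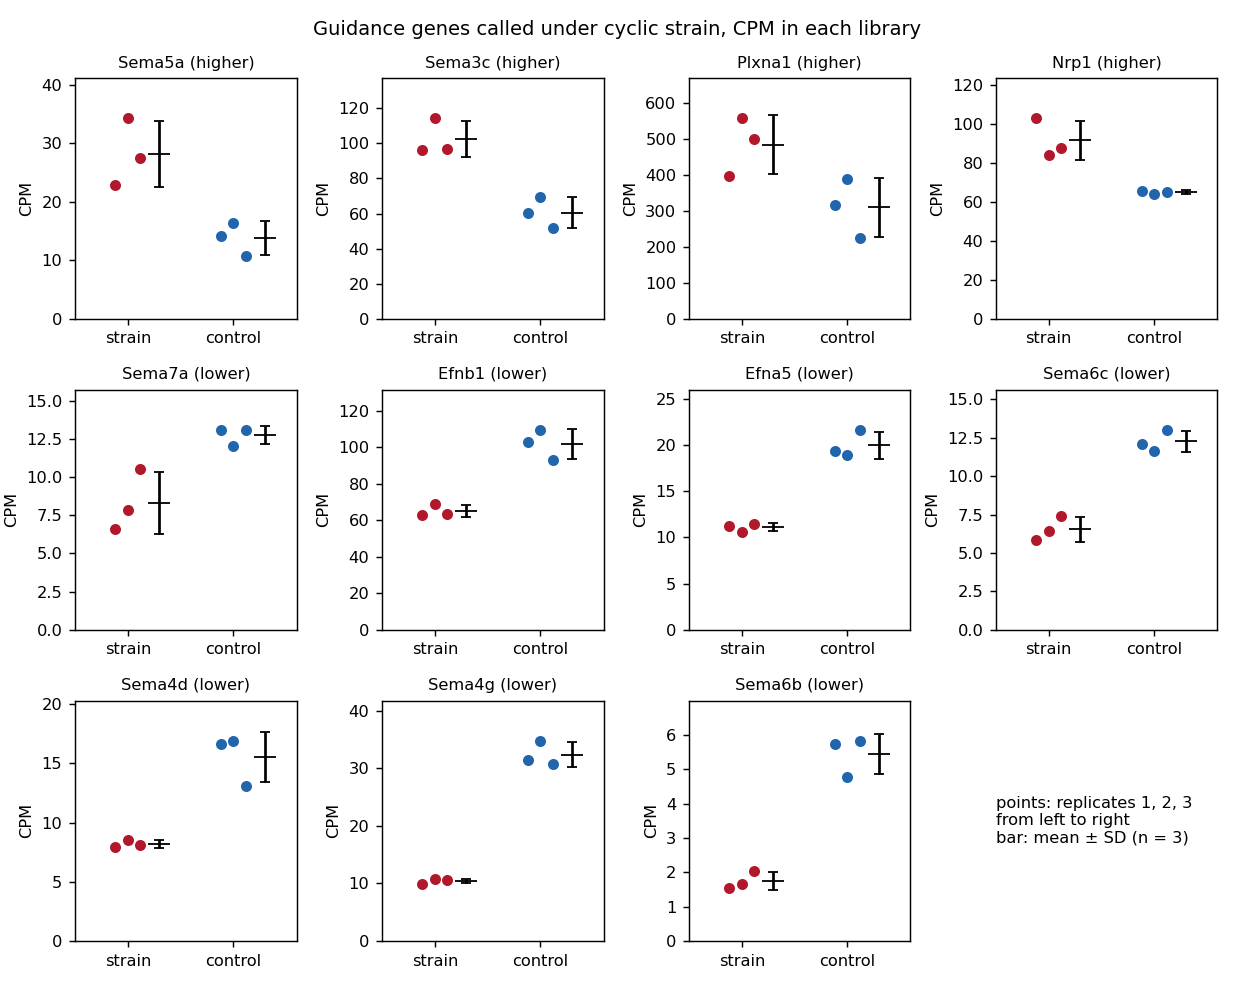
CPM (counts after TMM scaling to a common library size, linear axes from 0) of the 11 called genes in each library, cyclic strain left of static control, with points for libraries and lines for the group mean and SD. In each of the 11 panels every strain library lies on 1 side of every control library, closest for Plxna1, where 397 CPM in strain replicate 1 stands beside 388 CPM in control replicate 2.

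Plexins carry a GTPase-activating domain inside the cell and are the signalling receptors of semaphorins. Of 7 tested, Plxna1 rose and none fell. Plxna1, receptor for class 3 semaphorins with neuropilins and for class 6 semaphorins directly, had 397, 558 and 500.5 CPM in strain replicates 1 to 3, against 318, 388 and 224 CPM in control replicates 1 to 3. The groups did not overlap by a narrow margin, and the means were 485 ± 81.4 and 310.1 ± 82.2 CPM (SD, n = 3 each). Its log2 fold change was 0.65 (SE 0.19, edgeR adjusted p = 0.0470). The call was lost without strain replicate 2 (log2 fold change 0.53, edgeR adjusted p = 0.154), strain replicate 3 (0.62, 0.133), control replicate 1 (0.66, 0.118) or control replicate 3 (0.46, 0.0822). With strain replicate 1 and control replicate 3 both left out it was kept (0.58, edgeR adjusted p = 0.00230), and its adjusted p over all alternatives lay between 4.33e-05 and 0.154. Its span, chr6:89316313-89362613, overlaps the gene Gm40415, which had 4 to 16 counts a library.

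Plxnb2, a class B plexin that binds class 4 semaphorins, had 530.1, 703 and 702 CPM in strain replicates 1 to 3, against 619, 651 and 545 CPM in control replicates 1 to 3. The libraries were interleaved (log2 fold change 0.09, SE 0.13, edgeR adjusted p = 0.678). Plxnd1, the receptor of Sema3e, had 206, 328 and 317 CPM in strain replicates 1 to 3, against 215, 250.3 and 189 CPM in control replicates 1 to 3. Strain replicate 1 fell among the controls while replicates 2 and 3 lay above all of them, at a log2 fold change of 0.38 (SE 0.17, edgeR adjusted p = 0.170). Without strain replicate 1 it was called higher, at 0.56 (edgeR adjusted p = 0.0265), and its adjusted p over all alternatives lay between 0.00360 and 0.450. Plxna2, another class A receptor, had 139, 219 and 174 CPM in strain replicates 1 to 3, against 141, 175 and 108 CPM in control replicates 1 to 3, and was not called (0.33, SE 0.19, edgeR adjusted p = 0.280). Plxnb1, the receptor of Sema4d, had 5.76, 8.31 and 6.76 CPM in strain replicates 1 to 3, against 6.85, 8.15 and 4.64 CPM in control replicates 1 to 3. Its libraries were interleaved, with a log2 fold change of 0.08 (SE 0.22, edgeR adjusted p = 0.832) that moved between -0.11 and 0.27 when 1 library was left out. Plxna3 was also uncalled, at 78.1 ± 7.42 CPM under strain and 78.7 ± 13.4 CPM in control (SD, n = 3 each).

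The plexins shared a pattern over libraries. Control replicate 3 had the lowest control value for 7 of 7 tested plexins and for 27 of the 42 tested members (64.3%), against 41.2% of all genes tested. Strain replicate 1 had the lowest strain value for 6 of 7 plexins and for 25 of the 42 members (59.5%), against 37.6% of all genes. With both libraries left out, 10 of the 11 calls were kept, Sema7a was lost, and Efna4, Efnb2, Epha4 and Sema3a (lower) and Plxnd1 (higher) were added, a setting chosen after seeing the data.

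**Figure D3:**
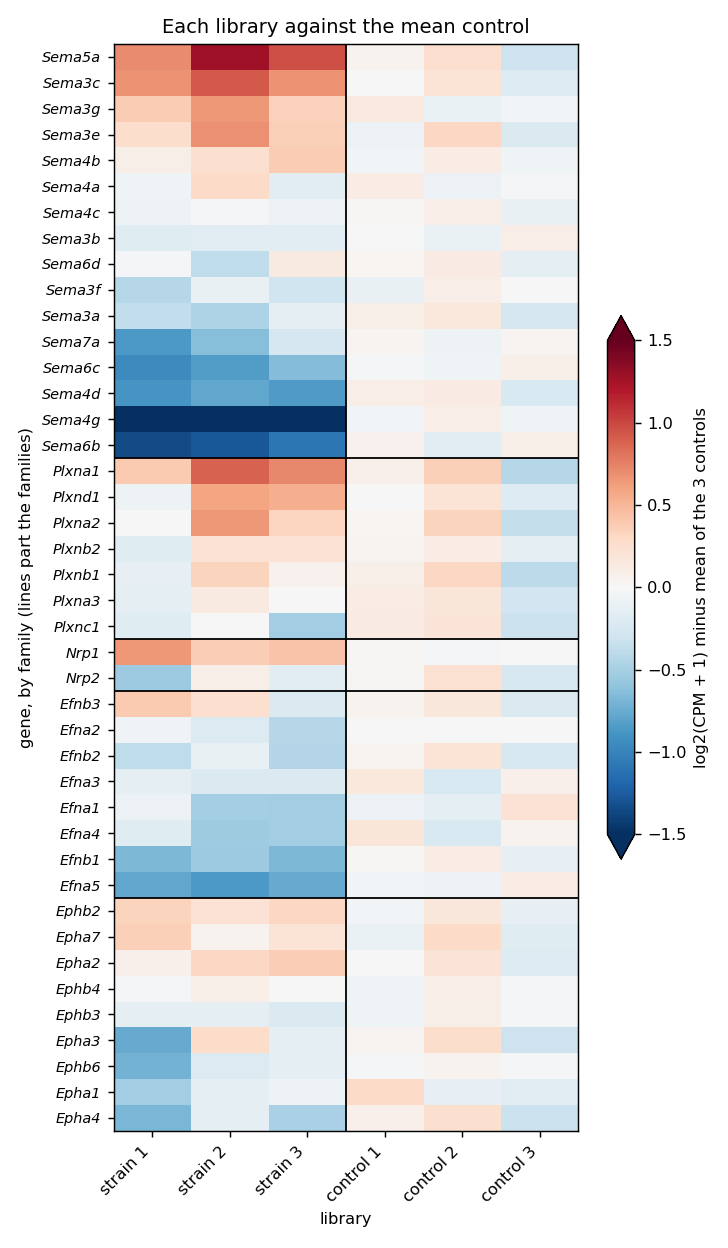
Log2 CPM, after a small constant was added, of the 42 tested guidance genes (rows, by family) in each library. Values are relative to the gene's mean over the 3 static control libraries. Cyclic strain libraries stand left of static control libraries, on a colour scale that ends at 1.5 on either side. Plexin rows are lowest within their group in control replicate 3 (7 of 7) and mostly in strain replicate 1 (6 of 7), while Sema4g and Sema6b are low in all 3 strain libraries.

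Neuropilins are co-receptors with short cell-internal tails that bind class 3 semaphorins and members of the VEGF family. Nrp1 had 103, 84.3 and 87.9 CPM in strain replicates 1 to 3, against 65.8, 64.0 and 65.4 CPM in control replicates 1 to 3. All strain libraries lay above all controls, which were within 2 CPM of one another, and the means were 91.7 ± 9.90 and 65.1 ± 0.969 CPM (SD, n = 3 each). Its log2 fold change was 0.50 (SE 0.10, edgeR adjusted p = 0.0125). The call was lost without control replicate 1, at the same size (0.50, edgeR adjusted p = 0.0596), and kept in the other 13 alternatives, from an adjusted p of 0.000378. Nrp2, the co-receptor of Sema3f, had 484, 753 and 629 CPM in strain replicates 1 to 3, against 714, 830.3 and 599.8 CPM in control replicates 1 to 3. Its groups overlapped, at a log2 fold change of -0.20 (SE 0.17, edgeR adjusted p = 0.455).

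Nrp1 lies at chr8:128358591-128505476 on the plus strand and had 5 open regions within 5 kb, none of them in all 4 libraries. One, chr8:128359277-128359612, just inside the gene, was found in both GFP control libraries, at 4.05-fold and 4.10-fold enrichment, and in neither knockout library. The promoter window (chr8:128358823-128359122, plus strand) touched a region in GFP control 2 alone, at 3.63-fold. It had a GC content of 64.0% and 1 GCGTG match in the reverse direction, in capitals.
Nrp1: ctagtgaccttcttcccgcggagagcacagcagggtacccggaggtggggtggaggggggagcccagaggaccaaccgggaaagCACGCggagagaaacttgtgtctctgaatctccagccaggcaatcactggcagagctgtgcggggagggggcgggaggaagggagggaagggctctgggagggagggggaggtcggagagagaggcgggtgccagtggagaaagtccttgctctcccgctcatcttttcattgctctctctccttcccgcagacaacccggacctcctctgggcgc

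Of the 8 ephrins, 2 fell and none rose, and 7 had a log2 fold change below 0, at a median of -0.43. Of all 15335 genes tested, 7576 had a log2 fold change below 0. Efnb1, a transmembrane ephrin whose loss in humans causes craniofrontonasal syndrome, had 63.0, 69.0 and 63.3 CPM in strain replicates 1 to 3, against 103, 109.6 and 92.7 CPM in control replicates 1 to 3. The strain libraries all lay below the controls, with means of 65.1 ± 3.39 and 102 ± 8.47 CPM (SD, n = 3 each). Its log2 fold change was -0.64 (SE 0.10, edgeR adjusted p = 0.00282). Efna5, a lipid-anchored ephrin known from the retinal map, had 11.3, 10.6 and 11.5 CPM in strain replicates 1 to 3, against 19.4, 19.0 and 21.7 CPM in control replicates 1 to 3. The groups stood well apart, at means of 11.1 ± 0.461 and 20.0 ± 1.47 CPM (SD, n = 3 each) and a log2 fold change of -0.85 (SE 0.12, edgeR adjusted p = 0.00149). Both calls stayed in all 14 alternatives.

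Efnb2, which in mouse passes signals from osteoclasts to EphB4 on osteoblasts, had 41.4, 49.8 and 39.6 CPM in strain replicates 1 to 3, against 55.5, 62.4 and 45.6 CPM in control replicates 1 to 3. Control replicate 3 fell within the strain range, and the gene was not called (log2 fold change -0.32, SE 0.14, edgeR adjusted p = 0.146). Without control replicate 3 it was called lower, at -0.43 (edgeR adjusted p = 0.0481), with adjusted p values of 0.0311 to 0.356 over all alternatives. Efna2 had 8.57, 7.64 and 6.40 CPM in strain replicates 1 to 3, against 8.96, 8.90 and 8.99 CPM in control replicates 1 to 3. In this ligand of EphA2 the strain libraries all lay just below the controls, yet the difference was not called (-0.25, SE 0.15, edgeR adjusted p = 0.294). Efna1, Efna3 and Efna4 had log2 fold changes of -0.44, -0.42 and -0.46 and were not called, and Efnb3, at 0.20, was the only ephrin above 0.

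Efnb1 lies at chrX:99136061-99149022 on the plus strand and had a single open region. This region, chrX:99136073-99136387, began 12 bases inside the gene and was found in both GFP control libraries, at 3.73-fold and 3.18-fold, and in neither knockout library. The promoter window, which the peak of GFP control 1 reached (chrX:99135811-99136110, plus strand), had a GC content of 59.7% and 1 GCGTG match, in capitals. Efna5, at chr17:62602957-62881317 on the minus strand, had 3 regions, and none touched its promoter window.
Efnb1: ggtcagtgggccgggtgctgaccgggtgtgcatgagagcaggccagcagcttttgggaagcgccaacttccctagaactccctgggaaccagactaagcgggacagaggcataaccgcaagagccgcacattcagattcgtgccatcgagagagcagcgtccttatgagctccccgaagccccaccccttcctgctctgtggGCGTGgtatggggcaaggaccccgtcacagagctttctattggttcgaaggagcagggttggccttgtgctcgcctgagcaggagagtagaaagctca

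None of the 9 tested Eph receptors was called by the main edgeR fit, by DESeq2 or by limma-voom. In edgeR 3 of the 9 (Epha4, Ephb2 and Ephb6) had an unadjusted p under 0.05. So did 4544 of all 15335 genes tested, a similar share. Epha2, a receptor with a described role in mouse bone remodelling, had 152, 179 and 186 CPM in strain replicates 1 to 3, against 145, 166 and 125 CPM in control replicates 1 to 3. Its groups overlapped, at a log2 fold change of 0.25 (SE 0.13, edgeR adjusted p = 0.210). Ephb4 had 65.6, 71.1 and 66.6 CPM in strain replicates 1 to 3, against 63.8, 71.9 and 65.4 CPM in control replicates 1 to 3. The groups covered nearly the same range (0.02, SE 0.10, edgeR adjusted p = 0.938), and the sign turned with 1 library left out, between -0.03 and 0.07. Ephb2, Ephb3 and Ephb6, a member without an active kinase, had groups that did not overlap, at log2 fold changes of 0.29, -0.17 and -0.33 and edgeR adjusted p values of 0.106, 0.254 and 0.153. Epha4 (-0.49, edgeR adjusted p = 0.128) was called lower with no filter on low counts and with the replicate block. It was also called lower without strain replicate 1 and control replicate 3 together. Epha3 and Epha7 had log2 fold changes of -0.19 and 0.27. Epha1 had -0.45 on 30 to 77 counts a library, and its span overlaps that of Zyx, with 12582 to 17846 counts, so its reads are uncertain, since the strand setting of the counting is not given in the sources used here.

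The genes that act beside these families were described from 3 lists. In each list the share of tested genes called lay close to the 13.3% of all genes tested that were called in either direction. Of 55 effectors of plexin and Eph signalling, 50 were tested, 2 rose and 4 fell, at a median log2 fold change of 0.07. Tiam1, which activates Rac, had 1.42, 2.27 and 1.94 CPM in strain replicates 1 to 3, against 0.810, 0.421 and 0.427 CPM in control replicates 1 to 3. It rose by 1.75 on the log2 scale (SE 0.36, edgeR adjusted p = 0.0111) on 15 to 85 counts a library, with no overlap between groups. Rras, a Ras family GTPase on which plexins act, fell by 0.56, and Plekhg5, which activates RhoA, by 0.55 (edgeR adjusted p = 0.0210 and 0.00656). Rnd3 fell by 0.52, Rhoa by 0.32, and Mical2, which oxidises actin, rose by 0.49 (edgeR adjusted p = 0.00604, 0.0446 and 0.0497). Tiam1 and Plekhg5 kept their calls in all 14 alternatives. Rnd3 lost its call without control replicate 1 (edgeR adjusted p = 0.0509). Rras lost it without any 1 strain library or control replicate 1 (edgeR adjusted p up to 0.0629), Mical2 without strain replicate 2 or 3 or control replicate 1 or 3 (up to 0.180), and Rhoa without any 1 library (up to 0.154). Mical2 also lost its call under DESeq2's size factors and limma-voom, and Rhoa with library size alone and with no filter.

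Of 28 co-receptors and partners, 22 were tested, 2 rose and 1 fell, at a median of 0.03. Pgf, a VEGF family ligand that binds neuropilin-1, had 0.384, 0.588 and 0.485 CPM in strain replicates 1 to 3, against 5.62, 4.63 and 4.92 CPM in control replicates 1 to 3. It fell by 3.38 on the log2 scale (SE 0.25, edgeR adjusted p = 3.27e-05), with 16 to 22 counts in strain libraries and 165 to 215 in control libraries. Met, the hepatocyte growth factor receptor that associates with class B plexins, had 41.8, 48.3 and 37.7 CPM in strain replicates 1 to 3, against 26.7, 29.2 and 23.6 CPM in control replicates 1 to 3. Its groups did not overlap (0.68, SE 0.13, edgeR adjusted p = 0.00641), and both Pgf and Met kept their calls in all 14 alternatives. Adam17, a protease that sheds surface proteins, rose by 0.44 (edgeR adjusted p = 0.0219) and lost its call without strain replicate 2 or 3 or control replicate 1 (edgeR adjusted p up to 0.0988).

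Of 28 genes of other guidance families, 21 were tested, 2 rose and 1 fell, at a median of 0.27. Slit2 and Slit3, secreted ligands of Robo receptors, rose by 0.68 and 0.55 (edgeR adjusted p = 0.0336 and 0.0467). Slit2 lost its call without strain replicate 2 or 3 or control replicate 1 or 3 (edgeR adjusted p up to 0.121), and Slit3 without any 1 library except strain replicate 1 (up to 0.168) and under limma-voom. Dscam, a cell adhesion molecule that binds netrin, had 2.09, 2.43 and 2.37 CPM in strain replicates 1 to 3, against 4.55, 5.28 and 4.15 CPM in control replicates 1 to 3. It fell by 1.02 (SE 0.20, edgeR adjusted p = 0.00725), without overlap, and kept its call in all 14 alternatives. The background for all 3 lists is the 13.3% of genes called in either direction given above.

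The ATAC-seq peak lists held 15980 and 13610 peaks in Piezo1 knockout 1 and 2, and 15978 and 26652 peaks in GFP control 1 and 2. Peaks that overlapped by at least 1 bp were merged into 29289 regions, of which 94 lay within 5 kb of a guidance gene, 76 of them touching a gene body. The number present in a library was 42 and 34 in knockout 1 and 2, and 50 and 80 in GFP control 1 and 2. The largest list, GFP control 2, alone held 27 of the 94 regions (28.7%), and it alone held 30.3% of all regions. With 2 peak lists a group and the depth unknown, no test was made, and with no reads over the edited site the knockout label was not checked.

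All 4 libraries shared 22 of the 94 regions (23.4%), against 26.4% of all regions. Both knockout libraries and neither GFP control library held 1 region (1.06%), against 1.57% of all regions. Both GFP control libraries and neither knockout library held 14 regions (14.9%), against 10.6% of all regions. With GFP control 1 left out the last count was 41, since presence in GFP control 2 was then enough, and the knockout-only count was 2 to 6 with any 1 library left out. The knockout-only region lay inside Ephb2, at chr4:136781625-136781882, with enrichments of 3.77-fold and 4.01-fold. Ephb2 also held a region of the GFP control libraries alone, chr4:136833744-136834473, at 3.90-fold and 5.54-fold. The other regions of the GFP control libraries alone lay near Sema3c, Nrp2 (2 each), Sema3f, Sema4f, Plxna1, Plxna2, Plxnd1, Nrp1, Efna5, Efnb1 and Ephb4 (1 each). That of Plxna1 was chr6:89344874-89345396, inside the gene, at 3.67-fold and 3.56-fold, and was its only region. That of Plxna2, chr1:194619410-194619808, touched its promoter window, at 4.70-fold in both libraries.

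Of the 53 genes, 36 had at least 1 region and 17 had none. The most were 8 near Plxna2, 7 near Ephb2 and 6 near Nrp2. Among the genes called under strain, the 4 that rose had 14 regions and the 7 that fell had 8. None of those 14 was in all 4 libraries, and 2 of those 8 were, at Sema6c and upstream of Efna5. Region counts were not scaled to gene length. The genes that rose span 46301 to 451529 bp, and those that fell span 12962 to 278361 bp. ATAC-seq was made in Piezo1 knockout and GFP control cells, with no strain in its labels, so these counts set genes and regions side by side only.

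**Figure D4:**
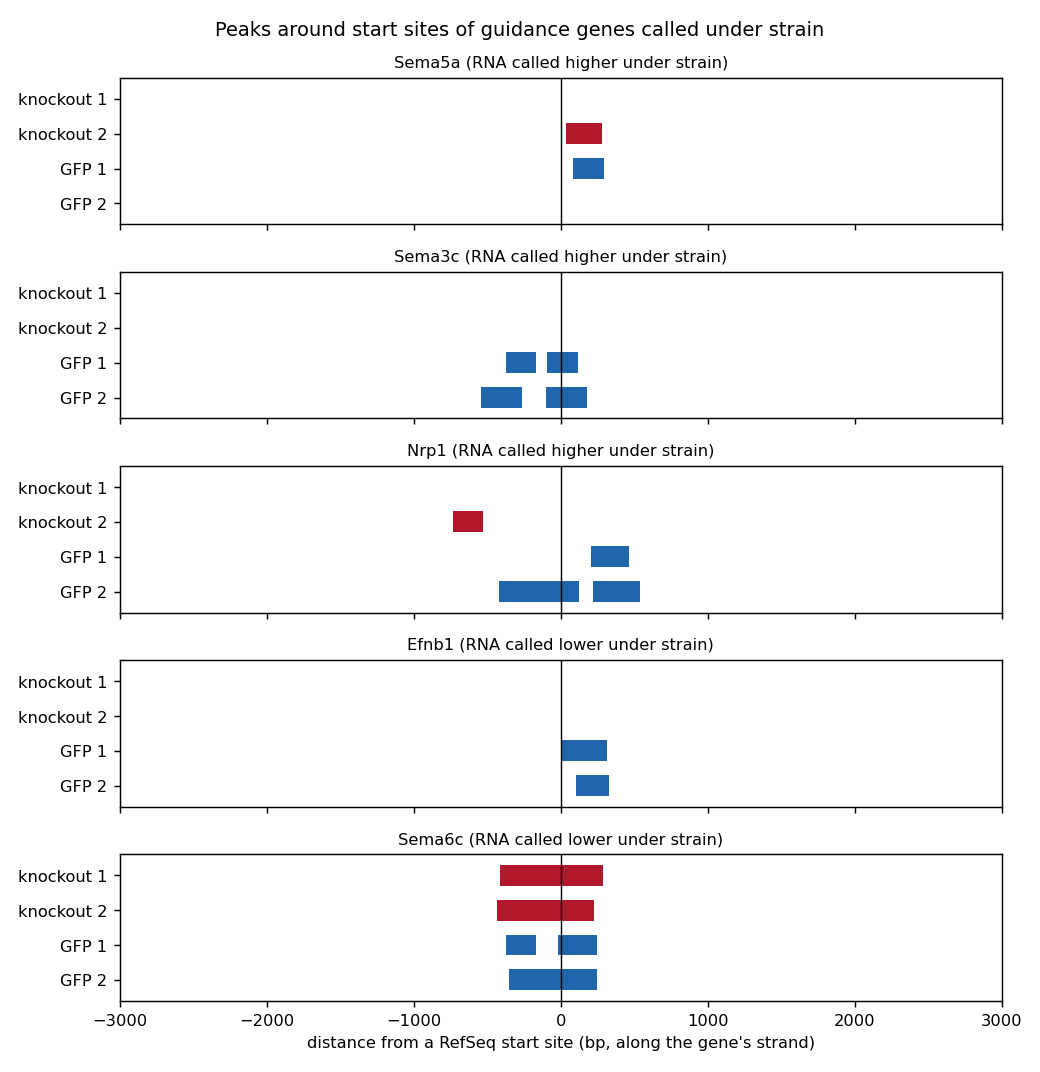
Peaks of the 4 ATAC-seq libraries (rows, Piezo1 knockout above GFP control) around the start sites of the 5 called genes whose promoter touched a region, as distance from the start site in bases along the gene's strand. Sema6c has a peak across its start site in all 4 libraries, Sema3c in the GFP control libraries only, and the Efnb1 peaks, also in these libraries only, begin past the start site.

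RefSeq promoter windows of 300 bases were at hand for 47 of the 53 genes, 61 windows in all. A region touched the promoter of 19 of the 47 (40.4%), against 29.9% of 27025 genes with a window. None of the 9 untested genes with a window was among the 19. The 27025 genes were not limited to those that passed the RNA-seq filter on low counts, so the shares cover unlike sets of genes. In 8 genes the promoter touched a region of all 4 libraries, namely Efnb2, Epha7, Ephb3, Ephb4, Plxnb2, Sema4b, Sema4c and Sema6c. Of these, Sema6c alone was called under strain. The motif GCGTG stood in 42.6% of the 61 windows and in 32.4% of all 32851 windows, on either strand. ACGTG stood in 19.7% and 19.6%, TGANTCA, the AP-1 motif, in 4.92% and 7.81%, and GGAATG, the TEAD motif, in 11.5% and 14.7% in the same order. All 5 printed windows hold GCGTG, only that of Sema3c holds ACGTG, and none holds TGANTCA or GGAATG in these letters. Windows of called genes that are not printed differ. GCGTG is absent from 1 Sema6b window and all 3 Sema4d windows. It is present in the other Sema6b window, in the second Sema6c window and in those of Sema4g, Efna5 and Sema7a. TGANTCA stands in 1 window each of Sema6b and Sema4d. The motif shares were not matched for GC content.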

How the data were processed

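Per the labels' protocols, RNA-seq cDNA was amplified by a kit for full-length single-cell mRNA and read as pairs of 150 bases. The authors deposited raw read counts per gene symbol in 1 table. The submitters' processing notes name Trim Galore 0.6.5, STAR, HTSeq and DESeq2 with the mm10 build for them. The sources used here do not give the annotation, the strand setting or the handling of multiple alignments. No molecular identifiers are named, so counts need not be independent molecules. The ATAC-seq peaks deposited by the authors are 1 list for each library, and the notes name Trim Galore 0.6.5, Bowtie2 2.4.2 and MACS2 with mm10. A deposited peak carries the authors' fold enrichment (its ratio to local background) and −log10 p and q values, used only to describe and filter peaks within a list. Read depth, the peak threshold and the shift to the transposase cut are unknown for these lists.

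Strain was compared with control over 15335 genes by a two-sided quasi-likelihood test in edgeR 4.0.16 (R 4.3.3, TMM scaling, filterByExpr with a minimum count of 10). Standard errors were derived from the F statistic and the log2 fold change, and CPM are TMM-scaled. Both the test and the peak merging were run on simulated data, which checks the code and not the calls made here. The simulated counts had no library set apart from its group. The 14 alternatives were DESeq2 1.42.0, limma 3.58.1 (voom), other scalings and filters, a replicate block, and libraries left out. All 53 members had a row in the RefSeq gene table of GRCm38.p6, and promoters are RefSeq's. No replicate pair agreed within sampling noise. The members and lists were chosen with earlier results of these data known. Per-library values are given for called members, for members of at least 100 CPM on average and for those with a described role in bone or mesenchyme. Genes of the lists are named where called.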

Additional observations from a re-analysis of the deposited data

How the results depend on the processing

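The 11 calls were kept under DESeq2's size factors, library size alone, DESeq2's test, limma-voom, no filter, a filter of 50 counts in 3 libraries and the replicate block, and 8 of them in every alternative. Leaving out 1 library gave 2 to 5 members called higher, 6 to 8 called lower and a median log2 fold change of -0.23 to -0.060, with the lowest count of higher calls without control replicate 1. Calls among effectors ranged from 1 to 5 higher and 1 to 3 lower with 1 library left out, among co-receptors from 1 to 5 higher, and among other guidance families from 0 to 3 higher. Effectors called higher came to 1 under DESeq2's size factors, 1 under limma-voom, 4 under DESeq2's test, 5 with no filter and 7 without strain replicate 1 and control replicate 3 together, an alternative chosen after seeing the data. Co-receptors called higher came to 4 under library size alone, 4 under DESeq2's test, 5 with no filter and 6 without both libraries, and those called lower to 2 under DESeq2's test, 3 with no filter and 4 without both. Other guidance families gave 4 higher under DESeq2's test, 4 without both libraries and 3 with library size alone or no filter, and 2 lower under DESeq2's test, 2 with no filter and 3 without both. The members' median was -0.13 with library size alone and -0.14 without both libraries. The labels do not say whether replicate numbers pair the samples. Same-numbered libraries correlated at 0.0587, 0.373 and 0.191 in their deviations from group means. Differently numbered strain and control libraries correlated at -0.332 to 0.139, and pairing was not tested. Over all genes the replicate block gave 1557 higher and 1619 lower calls, against 911 and 1134 without it. With the replicate block 5 members were called higher and 10 lower, the additions being Efna4, Efnb2 and Epha4 (lower) and Sema3e (higher), with 5 effectors and 4 co-receptors called higher, 2 co-receptors lower, and 3 genes of other guidance families higher. Among the uncalled genes given per library, those that changed sign with 1 library left out were Ephb4 (-0.025 to 0.067), Plxnb1 (-0.11 to 0.27) and Sema6d (-0.54 to 0.13). Of the regions, a −log10 q of at least 5 left 0 found in the knockout libraries alone, and presence only where a peak covered at least 50% of a region gave 10 in all libraries and 2 in the knockout libraries alone. With 1 ATAC-seq library left out, regions of all libraries numbered 23 to 30, of the knockout libraries alone 2 to 6 and of the GFP control libraries alone 15 to 41, since presence in fewer libraries was then enough. The cause of the other changes was not tested. Members with few counts limit what could be called, and peak lists of unknown depth limit the regions.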
